A study of Mus musculus with 12 samples.

Results

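Carbonic anhydrases interconvert carbon dioxide and bicarbonate, and 10 genes of this family were followed here out of 24985 genes counted in the mouse dorsal hippocampus. Car14 was chosen by its measured levels in the 4 groups of mice, so its values are given as a description and carry no test. The other 9 genes (Car2, Car4, Car7, Car8, Car10, Car11, Car12, Car13 and Car5b) are family members by symbol, listed with earlier results of these data known. All 10 passed the filter on low counts. Car9 and Car15 passed it too but were not among the members, and they are given with the further genes of the family. RNA came from the injected right dorsal hippocampus of 12 wild-type C57Bl6/J mice, 3 per group, that had received PBS or AD tau at an age of 6 months. AD tau is the sarkosyl-insoluble tau fraction purified from human Alzheimer's disease brain, which seeds aggregation of endogenous mouse tau, and 1 µg was injected on that side only. Mice were then kept on control chow or on chow with 5% sodium acetate for the months up to collection, had gone through fear conditioning, and were killed the day after a remote recall test. Each group is named by its injection and then its diet, so that tau acetate stands for tau-injected mice fed acetate.

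The catalytic members of the family buffer intracellular and extracellular pH and move acid equivalents together with bicarbonate transporters and lactate carriers. In the brain the cytosolic enzyme Car2 is abundant in myelinating oligodendrocytes, while membrane-anchored forms face the extracellular space around neurons, glia and capillaries. Some members, the carbonic anhydrase-related proteins, have lost residues that hold the catalytic zinc and act by binding other proteins.

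The libraries held 12983233 to 20218340 gene counts, and a level is given as counts scaled to library size (CPM) after TMM normalization. Markers of CA1, CA3 and dentate granule neurons were counted in every mouse. Markers of thalamus, a region outside the hippocampus, were uneven between groups. Their sum was 61.8 to 196 CPM in PBS control and 40.3 to 50.1 CPM in PBS acetate mice. It was 28.9 to 63.2 CPM in tau control and 38.6 to 56.4 CPM in tau acetate mice. The part of this tissue in differences from PBS control mice was not tested. The mice are labelled male, but Xist had 13583 to 25991 counts in the 12 mice and 8 Y-linked genes had no count. These counts go against that label. Mouse 3 of the tau acetate group stood apart in choroid plexus markers, with a summed level of 496 CPM against 70.2 to 211 in the other mice, and results that turned on it are given without it too. Fewer cells of a type and less RNA per cell cannot be told apart in these bulk samples.

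Car14 lies on the minus strand of chromosome 3 of GRCm38 (chr3:95897768-95904691) and Car11 on the plus strand of chromosome 7 (chr7:45699843-45704682). Car2 (chr3:14886273-14900770) and Car10 (chr11:93098028-93601749) are on plus strands. These are the gene with the chosen pattern and the member with the smallest adjusted p for diet, and the 250 bases before the RefSeq start of each (GRCm38.p6, first listed start, read 5′ to 3′ on the gene's strand) are shown to let their promoters be compared. Capitals mark TATTTAA in Car14, at chr3:95904686-95904935, and E-boxes (CANNTG) in Car11, at chr7:45699554-45699803:
Car14: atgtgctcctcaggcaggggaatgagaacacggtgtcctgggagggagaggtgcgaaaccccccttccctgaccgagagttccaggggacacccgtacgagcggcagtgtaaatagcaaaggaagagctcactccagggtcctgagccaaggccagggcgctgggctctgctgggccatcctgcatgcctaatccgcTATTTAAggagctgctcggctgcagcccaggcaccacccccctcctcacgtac
Car11: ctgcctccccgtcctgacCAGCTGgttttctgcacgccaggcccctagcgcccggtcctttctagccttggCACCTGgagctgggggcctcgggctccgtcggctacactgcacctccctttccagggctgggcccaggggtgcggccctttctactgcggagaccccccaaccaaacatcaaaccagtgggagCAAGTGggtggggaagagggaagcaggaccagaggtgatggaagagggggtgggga
The Car14 window held TATTTAA from position -53 and none of the other motifs searched on both strands, which were the E-box, the canonical TATA box (TATAAA) and a pair of SOX-type words, ACAATG first and then ACAAAG. The Car11 window held E-boxes from positions -232, -179 and -56 and no other motif of the set. Of 32851 RefSeq promoter windows of the same length, 4.18% held TATTTAA, a word added after the Car14 sequence had been seen, and 66.2% held an E-box. ACAATG was in 10.7% of windows, ACAAAG in 16.5% and TATAAA in 12.4%. RefSeq windows were matched for 7 of the 10 genes, the exceptions being Car2, Car8 and Car13.

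Per exonic length, Car2 and Car11 were the most abundant members in every mouse. Levels between genes are compared only per length (TPM), computed from the counts and GENCODE exonic lengths. Car2 had a median of 363 TPM over the 12 mice (290.71 to 476) and Car11, a catalytically inactive relative, 273 TPM (227 to 334), and these ranges overlapped. Car4 followed at 84.6 TPM (69.2 to 99.1), apart from the genes on either side of it. Car10, Car7, Car12 and Car14 came next, with medians of 30.5, 24.4, 20.1 and 16.9 TPM, and each overlapped its neighbor in this order. Car5b, Car8 and Car13 were lowest, at 2.81, 2.72 and 1.95 TPM, with overlapping ranges that all lay below that of Car14 (12.0 to 24.2 TPM). Car2 made up 37.7% to 52.0% of the summed TPM of the 10 genes and Car14 1.53% to 2.62%.

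**Figure D1:**
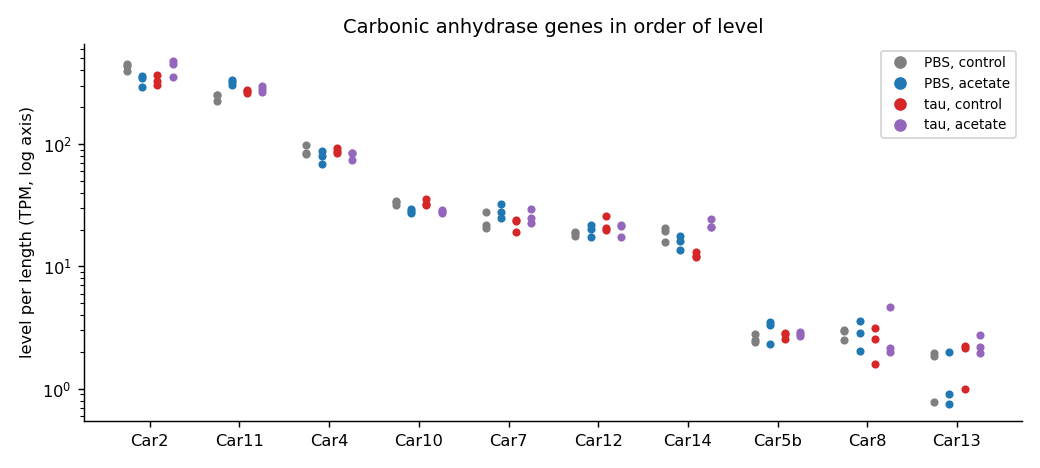
Level per length (TPM, log axis) of each of the 10 carbonic anhydrase genes, ordered by median, with 1 point per mouse colored by group (3 mice each). Car2 and Car11 lie above 200 TPM in every mouse, and Car5b, Car8 and Car13 lie below all Car14 values.

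Car14, a transmembrane enzyme whose catalytic domain faces outward, was lowest in tau mice on the control diet and highest in tau mice on acetate. The 3 PBS control mice had Car14 levels of 11.47, 10.73 and 9.07 CPM. The PBS acetate mice had 9.69, 8.87 and 7.67 CPM. The tau control mice had 6.78, 6.70 and 7.17 CPM, and the tau acetate mice 13.4, 11.8 and 11.4 CPM. The tau control mice thus lay below all other mice, 2 of the 3 tau acetate mice lay above every PBS control mouse with the other just under the highest of them, and the PBS control and PBS acetate ranges overlapped. These levels rest on 94 to 271 counts per mouse.

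As group means, Car14 was 10.4 ± 1.23 CPM in PBS control, 8.74 ± 1.02 in PBS acetate, 6.88 ± 0.253 in tau control and 12.2 ± 1.06 in tau acetate mice (SD, n = 3). The fitted log2 difference of tau from PBS was -0.60 on the control diet and 0.49 on the acetate diet. The log2 difference of acetate from control diet was -0.26 in PBS mice and 0.83 in tau mice, which is 1.78-fold. The diet difference in tau mice minus that in PBS mice was 1.09 on the log2 scale. These differences describe the levels by which Car14 was chosen, so no standard error or test is given with them. All comparisons here draw on the same 4 groups, so each pair of them that shares a group is not independent.

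Car14 shares 445 exonic bases with Aph1a, a gamma-secretase subunit gene on the opposite strand. Reads were counted with the reverse-strand setting, and the labels name a directional library kit where the methods name another one, so the separation of these genes' reads is uncertain. Aph1a had 9.82 to 15.05 CPM over the 12 mice, and its log2 differences were -0.03, -0.11, 0.15 and 0.07 in the 4 comparisons, in the order tau on control diet, tau on acetate diet, acetate in PBS mice and acetate in tau mice. None of these passed in edgeR, whose quasi-likelihood p-values were adjusted by the Benjamini-Hochberg method (adjusted p 0.966, 0.808, 0.529 and 0.904).

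Car2, the high-activity cytosolic enzyme of oligodendrocytes, had its low groups in the same places as Car14. The PBS control mice had Car2 levels of 242, 229 and 216 CPM and the PBS acetate mice 188, 179 and 156 CPM. The tau control mice had 176, 161 and 192 CPM, and the tau acetate mice 239, 253 and 185 CPM. Both the PBS acetate and the tau control mice lay below every PBS control mouse. In the tau acetate group 2 mice were as high as PBS controls, and mouse 3, the one with high choroid plexus markers, fell among the tau control mice. Group means were 229 ± 13.3, 174 ± 16.7, 176 ± 15.7 and 226 ± 35.9 CPM (SD, n = 3), in the order PBS control, PBS acetate, tau control, tau acetate.

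**Figure D2:**
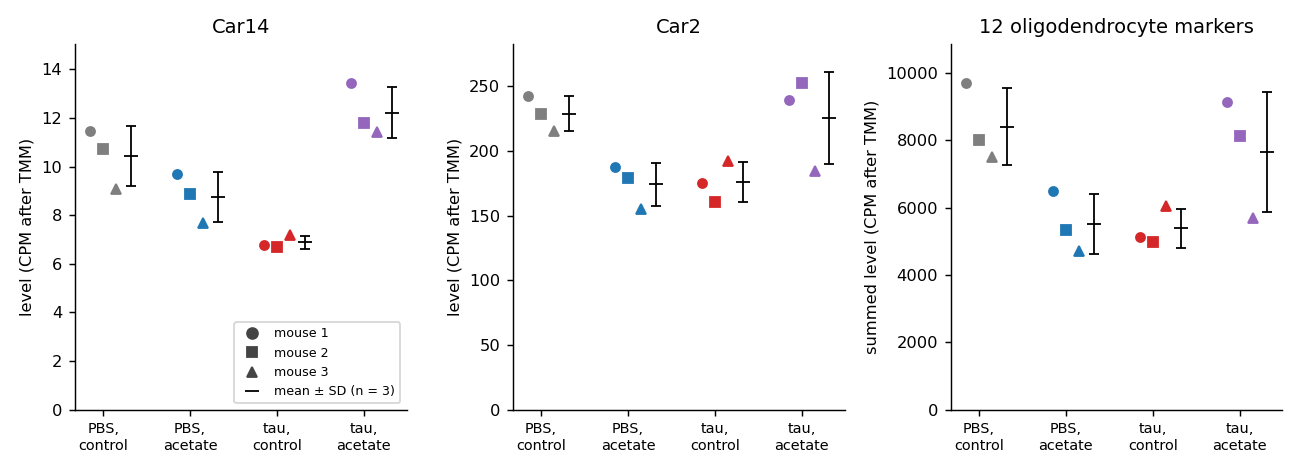
Levels (CPM after TMM) of Car14, Car2 and the sum of 12 oligodendrocyte marker genes in each mouse (symbols) by injection and diet, with mean ± SD (n = 3) as black bars. Each axis starts at 0, tau control mice are lowest for Car14, and mouse 3 of the tau acetate group is the lowest of its group in each plot.

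For AD tau against PBS in control-fed mice, which asks what the seeding alone changed, none of the 9 members other than Car14 passed an adjusted p of 0.1 in edgeR's quasi-likelihood test, where 0.0136% of all 14742 tested genes passed. At an unadjusted p below 0.05 there were 3 members, against 9.65% of all tested genes. Car2 was 0.38 lower on the log2 scale (log2 difference -0.38, SE 0.113, adjusted p = 0.354). Car11 and Car12, a transmembrane enzyme, had log2 differences of 0.13 (SE 0.0568, adjusted p = 0.470) and 0.24 (SE 0.107, adjusted p = 0.481), and in both the 3 tau mice lay above the 3 PBS mice. Without tau control mouse 2 the Car12 difference was 0.11 (edgeR adjusted p = 0.920). The median log2 difference of the 9 members was -0.01, beside -0.00086 over all genes. DESeq2's Wald test called 1 member, Car2 (adjusted p = 0.0586), among 0.688% of the genes it gave an adjusted p.

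For tau against PBS on the acetate diet, again 0 of 9 members passed by edgeR, where 0.136% of tested genes did. An unadjusted p below 0.05 was reached by 2 members, against 10.3% of all tested genes. Car2 was on average higher in the tau acetate mice (log2 difference 0.37, SE 0.113, adjusted p = 0.283), with overlapping groups. Car11 was lower in all 3 tau acetate mice than in any PBS acetate mouse (log2 difference -0.18, SE 0.0557, adjusted p = 0.266). DESeq2 called Car2 alone (1 member, adjusted p = 0.0539), against 0.674% of its genes. Without mouse 3 of the tau acetate group edgeR called Car2 too (log2 difference 0.50, adjusted p = 0.0483). The median of the 9 members was 0.02, beside -0.0035 over all genes.

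Acetate feeding in PBS mice gave the most member calls. In this comparison 3 of the 9 members passed, 1 higher (Car11) and 2 lower (Car2 and Car10), against 8.84% of all tested genes. That share, 1303 genes, rested on single mice: 727 genes passed without PBS control mouse 1, 248 without PBS control mouse 3, 315 without PBS acetate mouse 1 and 15 without PBS acetate mouse 2. The same 3 were those with an unadjusted p below 0.05, a level that 20.8% of tested genes reached. The median of the 9 was -0.01, beside 0.0042 over all genes.

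Car11, a secreted relative without catalytic activity, rose with acetate in PBS mice. Its levels were 107, 105 and 98.1 CPM in PBS control mice and 139, 133 and 128 CPM in PBS acetate mice. In tau control mice they were 116, 115 and 109 CPM, and in tau acetate mice between 112 and 123 CPM. The PBS acetate mice lay above every other mouse, while the tau groups overlapped each other. The rise in PBS mice was 1.29-fold (log2 difference 0.37, SE 0.0563, edgeR adjusted p = 0.00618), and it kept an adjusted p below 0.1 when each of the 12 mice was left out in turn (0.00382 to 0.0520). In tau mice the diet difference was 0.06 (95% interval -0.06 to 0.17).

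Car10, a secreted catalytically inactive relative that binds neurexins at the synapse, fell with acetate in PBS mice. The PBS control mice had 47.1, 47.6 and 45.3 CPM and the PBS acetate mice 38.8, 37.3 and 41.1 CPM. The tau control mice had 45.4, 49.7 and 43.8 CPM and the tau acetate mice 39.4, 37.8 and 39.7 CPM. All 6 acetate-fed mice lay below all 6 mice on control diet, with either injection. The log2 difference was -0.26 in PBS mice (SE 0.0671, edgeR adjusted p = 0.0433) and -0.25 in tau mice, where it did not pass (SE 0.0672, adjusted p = 0.208). The difference between these was 0.01, with a 95% interval of -0.19 to 0.21.

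Car2 fell with acetate in PBS mice by 0.39 on the log2 scale (SE 0.113, edgeR adjusted p = 0.0746). Oligodendrocyte markers were lower in the same mice, and the Car2 values are set beside them further on. The calls of Car2 and Car10 were each lost when single mice were left out. Without PBS control mouse 1 or 3, or PBS acetate mouse 1 or 2, Car11 was the 1 member called. The Car2 call was also lost without PBS control mouse 2, tau control mouse 1 or PBS acetate mouse 3, and in the last case Car4 was called beside Car10 and Car11.

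**Figure D3:**
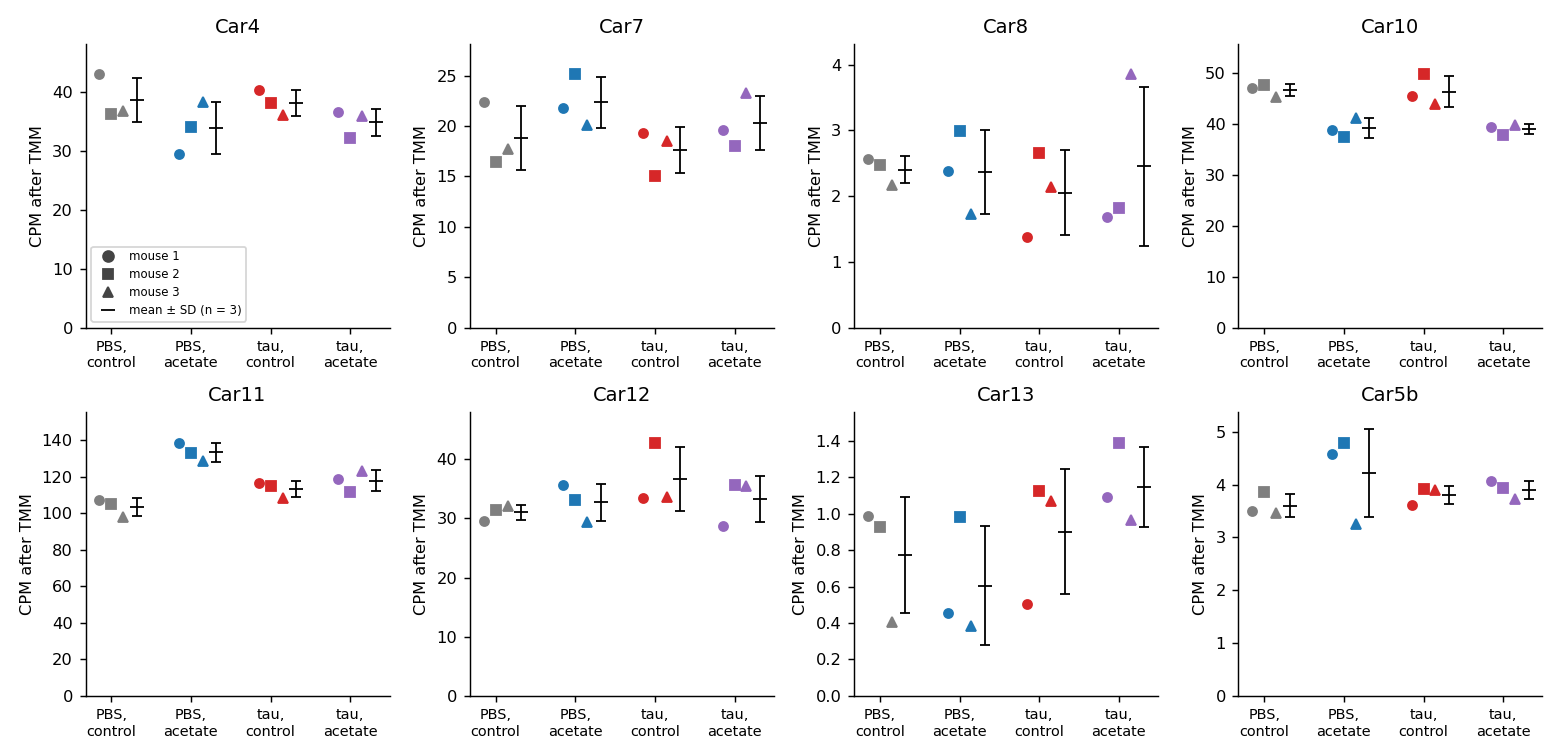
Levels (CPM after TMM, axes from 0) of the 8 members other than Car14 and Car2 in each mouse by group, with mean ± SD (n = 3) as black bars. Car10 is lower in both acetate groups than in either control-diet group, Car11 is highest in PBS acetate mice, and the groups of Car8, Car13 and Car5b overlap.

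In tau mice acetate led to no member call by edgeR (0 of 9, where 0.0611% of tested genes passed), and 2 members, Car2 and Car10, had an unadjusted p below 0.05, against 10.9% of all tested genes. Car2 had a log2 difference of 0.36 (SE 0.113, adjusted p = 0.292) and the 2 groups overlapped. Without tau acetate mouse 3 the Car2 difference was 0.49 and passed (adjusted p = 0.0362). DESeq2 called 2 members, again Car2 and Car10, against 2.19% of its genes. The median of the 9 was 0.06, beside 0.00079 over all genes.

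Whether the diet difference depended on the injection was tested as the interaction of both. Of the 9 members 2 passed by edgeR, Car2 with a higher and Car11 with a lower diet difference in tau mice, where 1.56% of tested genes passed. Those 230 genes became 8 without PBS acetate mouse 2 and 442 without tau acetate mouse 3, the lowest and highest counts with 1 mouse left out. These were also the 2 members with an unadjusted p below 0.05, against 13% of tested genes. For Car2 the diet difference in tau mice exceeded that in PBS mice by 0.75 on the log2 scale (SE 0.160, adjusted p = 0.0736). For Car11 it was smaller by 0.31 (log2 value -0.31, SE 0.0796, adjusted p = 0.0866). Both calls depended on which mice were included: 0 members passed without PBS control mouse 2, PBS acetate mouse 2, tau control mouse 1 or 2, or tau acetate mouse 1. Car11 alone passed without PBS control mouse 1 or PBS acetate mouse 3, and Car2 alone without PBS control mouse 3, PBS acetate mouse 1 or tau acetate mouse 2. At an adjusted p of 0.05 none of the 9 passed with all mice.

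**Figure D4:**
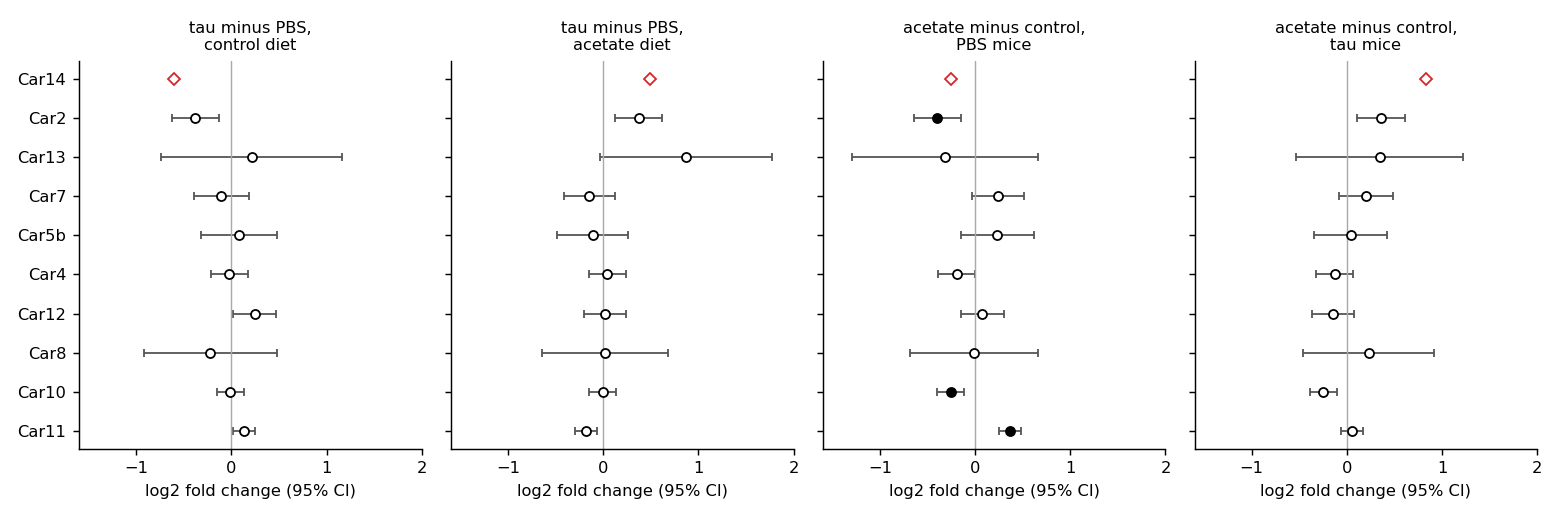
Fitted log2 fold changes of the 10 genes in the 4 pairwise comparisons, with 95% intervals for all but Car14 and filled circles for an adjusted p below 0.1 in edgeR's test. Car14 is a red diamond with no interval, because it was chosen by its levels and not tested. Filled circles appear only for Car2, Car10 and Car11, in acetate against control diet in PBS mice.

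With all 12 mice, none of the other members was called in any of the 5 comparisons by edgeR. Car4, a lipid-anchored enzyme of the cell surface, ranged from 29.4 to 42.9 CPM, and its largest log2 difference was -0.19 for acetate in PBS mice (SE 0.0934, adjusted p = 0.253). Car7, a cytosolic enzyme of mature neurons, ranged from 15.1 to 25.1 CPM, with diet differences of 0.24 in PBS mice (adjusted p = 0.306) and 0.20 in tau mice (adjusted p = 0.617). Car12 had 29.6, 31.4 and 32.2 CPM in PBS control mice and 33.5, 42.8 and 33.6 CPM in tau control mice, where 1 tau mouse was far above the rest. Its interaction value was -0.22 (95% interval -0.54 to 0.09).

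Car5b, the mitochondrial enzyme, stayed between 3.26 and 4.80 CPM. Car8, a catalytically inactive relative that binds the IP3 receptor, had 1.37 to 3.85 CPM, and its highest value was in mouse 3 of the tau acetate group. Car13, a cytosolic enzyme, had the lowest median TPM of the 10 genes and 0.383 to 1.39 CPM, from as few as 6 counts in a mouse. Its tau difference on acetate was 0.87 with a 95% interval of -0.03 to 1.77, and no difference was detectable for it at this depth. Further genes of the family are given in CPM with no length applied, so their levels are not ranked against the members. Car15 ranged from 5.24 to 8.31 CPM, Car9 from 0.0721 to 1.98 CPM, and Car5a, Car3, Car1 and Car6 had at most 13, 9, 2 and 1 counts in a mouse. Ptprg and Ptprz1, receptor tyrosine phosphatases that carry a carbonic anhydrase-like domain, had 85.9 to 147 and 238 to 275 CPM.

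Oligodendrocyte markers were low and high in the same groups as Car2 and Car14, so their values are set beside these genes. The 12 markers, among them the myelin genes Mbp and Mog, summed to 7511 to 9697 CPM in PBS control, 4713 to 6491 in PBS acetate, 4982 to 6060 in tau control and 5688 to 9131 in tau acetate mice, and none was at 0 in any mouse. All 12 were below 0 for tau on the control diet (median log2 difference -0.62, 0 called) and for acetate in PBS mice (median -0.55, 4 called lower). All 12 were above 0 for tau on the acetate diet (median 0.46, 0 called) and for acetate in tau mice (median 0.52, 0 called), and the median interaction value was 1.09 with 0 called. The 5 ependymal markers had the same directions in these 4 comparisons, with a median interaction value of 2.00 and 3 called higher. All 12 oligodendrocyte markers had an unadjusted p below 0.05 in edgeR's test for tau on the control diet and for the interaction. Of all tested genes 9.65% and 13% did. The markers numbered 9 for acetate in PBS mice, 7 for tau on the acetate diet and 9 for acetate in tau mice. The shares of all tested genes there were 20.8%, 10.3% and 10.9%. The share of either list's shifts in the Car2 and Car14 values was not tested.

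Over the 12 mice, Car2 and the summed oligodendrocyte level had a Pearson r of 0.96 (Spearman rho 0.97), and 0.91 after each group's mean was removed. For Car14 and the same sum r was 0.79 (rho 0.83), and 0.81 within groups. The ependymal sum was the next most like list for both genes. Its r was 0.67 with Car14 (within groups 0.22) and 0.63 with Car2 (within groups -0.24). Car14 and Car2 had an r of 0.79 (rho 0.80, within groups 0.68). These are descriptions over mice that share tissue dissection and scaling. The 5 genes most like Car2 were Rassf2 (r = 0.99), Plekhb1 (0.97), the myelin gene Mbp (0.97), Slain1 (0.97) and Apod (0.97). The 5 most like Car14 were the kinesin genes Kif1c (0.93) and Kif13a (0.93), and Tmem125 (0.93), Rtkn (0.91) and Cdk19 (0.91), and Car2 stood at rank 141 in that order.

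**Figure D5:**
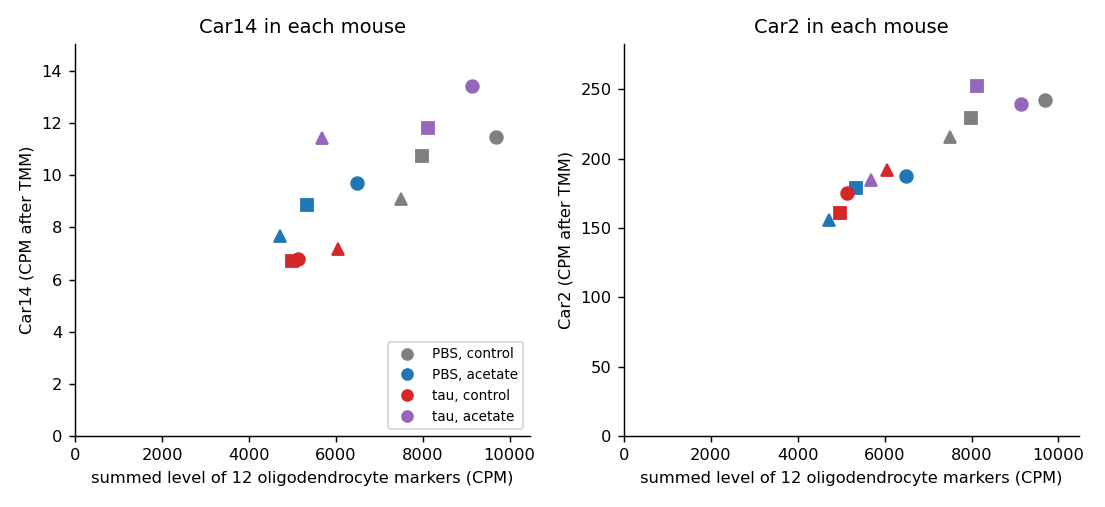
Car14 (left) and Car2 (right) level in CPM against the summed level of 12 oligodendrocyte markers in CPM, 1 point per mouse, colored by group and shaped by mouse number, with axes from 0. Car2 follows the marker sum closely (r = 0.96, n = 12 mice). At a similar marker sum Car14, chosen by its levels, is higher in acetate-fed than in control-diet mice, a description with no test.

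Expressed per 1000 counts of the 12 oligodendrocyte markers, Car14 had a different order of groups from its CPM. The ratio was 1.18, 1.34 and 1.21 in PBS control and 1.32, 1.34 and 1.18 in tau control mice. It was 1.49, 1.66 and 1.63 in PBS acetate and 1.47, 1.45 and 2.01 in tau acetate mice. All 6 acetate-fed mice lay above all 6 control-diet mice on this scale, and within each diet the injection groups overlapped, a description with no test. The Car2 ratio was 25.0 to 28.7 in PBS control, 28.9 to 33.6 in PBS acetate, 31.7 to 34.2 in tau control and 26.2 to 32.5 in tau acetate mice. Its acetate-fed and control-diet mice overlapped.

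Markers of other regions and cells also moved with acetate in PBS mice, the comparison in which Car10 and Car11 were called. The 5 CA1 markers summed to 471 to 598 CPM in PBS control and 727 to 951 CPM in PBS acetate mice, with 3 called higher. The 4 CA3 markers summed to 186 to 228 and 95.1 to 172 CPM, with 2 called lower. In tau mice the sums overlapped between diets, at 618 to 776 and 662 to 942 CPM for CA1 and 144 to 168 and 114 to 176 CPM for CA3. Car10 did not overlap between the diets in tau mice. Over the 12 mice, Car11 was most like the CA1 sum (r = 0.77, within groups 0.44) and Car10 most like the CA3 sum (r = 0.67, within groups 0.21). Negative values were as large: Car11 had -0.78 with the CA3 sum (within groups -0.39) and Car10 had -0.71 with the CA1 sum (within groups -0.14). For the remaining members the highest r was with CA3 for Car4 (0.66, within groups 0.47) and CA1 for Car7 (0.55, within groups 0.50). It was with astrocytes for Car12 (0.73, within groups 0.70), Car5b (0.75 and 0.77) and Car8 (0.32 and 0.53). For Car13 it was with oligodendrocyte precursors (0.70 and 0.63). Each is the largest of 16 lists, and some were close to others. Car8 had 0.30 with choroid plexus, and Car12 had 0.80 within groups with inhibitory neurons. The cell type of origin was not tested. The part of tissue composition in the Car10 and Car11 differences was not tested. Of 5 ependymal markers, 4 were called lower with acetate in PBS mice and 3 had a higher interaction value, with sums of 36.3 to 42.3, 17.8 to 19.6, 15.4 to 28.3 and 24.7 to 51.4 CPM in the 4 groups, in the order given for the oligodendrocyte markers.

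The transporter lists set beside these enzymes gave no call. Tested were 8 genes listed for bicarbonate transport, 9 sodium-proton exchangers and 5 genes listed for monocarboxylate transport (Slc16a1, Slc16a3, Slc16a7, Bsg and Emb). With 4 further carbonic anhydrase family genes (Car9, Car15, Ptprg and Ptprz1), 0 passed edgeR's adjusted threshold in any of the 5 comparisons. At an unadjusted p below 0.05, genes of the bicarbonate list numbered 3 and sodium-proton exchangers 4 for acetate in tau mice, where 10.9% of all tested genes reached it. Genes of the bicarbonate list also numbered 2 for tau on the acetate diet, 1 for acetate in PBS mice and 3 for the interaction. Of all tested genes 10.3%, 20.8% and 13% reached it. There was 1 sodium-proton exchanger for acetate in PBS mice and 1 gene of the monocarboxylate list for tau on the control diet. No other list member reached it in any comparison. The smallest p among all these lists was that of Slc4a10, a sodium-bicarbonate transporter of neurons and choroid plexus named after its values were seen, which was 0.20 lower on acetate in tau mice (log2 difference -0.20, SE 0.0499, edgeR adjusted p = 0.182).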

How the data were processed

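RNA-seq of 12 mice was used, grouped by injection and diet from the sample labels. Per the labels and the methods, the authors aligned polyA libraries with STAR 2.5.2a to GRCm38, used HTSeq 0.9.1 to count them over exons (reverse strand) and deposited the raw counts. Every sample column was used. The rest was computed here. Genes were kept by filterByExpr (minimum count 10, minimum total 15), which left 14742 of 24985. edgeR 4.0.16's quasi-likelihood F test with TMM scaling was fitted with 1 mean per group over all 12 mice (8 residual degrees of freedom), in R 4.3.3. Adjustment was by the Benjamini-Hochberg method across the whole set of tested genes, with a threshold of 0.1, the one the study used for these data. Standard errors came from the F statistic. Totals were 12983233 to 20218340 counts, and the common biological coefficient of variation was 7.25%. Replicates of a group differed by more than counting noise (chi-square per degree of freedom 3.45 to 7.53). The paper's results call the sequenced mice representative animals of their groups, so p-values cover the spread among these mice only. TPM used exonic lengths from GENCODE mouse release 21, which matched 24489 symbols to 1 gene each. Promoters were taken from RefSeq. All 10 members, the marker and transporter lists and the marker genes were chosen with earlier results of these data known. A fold change was given for members with an unadjusted p below 0.05, transporters were to be named past the threshold, and likeness took the 5 highest Pearson r. Alternatives were DESeq2 1.42.0, its size factors, no filter, a threshold of 0.05, only the compared mice, a replicate block and leaving out each mouse. The fitting functions were tested on simulated data.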

Additional observations from a re-analysis of the deposited data

Results flagged for a closer look

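The response to the acetate diet differed between PBS and tau mice for Car2 and Car11, by the interaction test of edgeR across all genes. For Car2, the log2 diet difference was -0.39 in PBS mice and 0.36 in tau mice, an interaction of 0.754 (SE 0.160, adjusted p = 0.0736), and the tau acetate group held 2 high mice and 1 lower mouse. For Car11, it was 0.37 in PBS mice and 0.06 in tau mice, an interaction of -0.309 (SE 0.0796, adjusted p = 0.0866). The 12 oligodendrocyte markers had a median interaction of 1.09 and the 5 CA1 markers one of -0.28, with 0 called in either list. The 5 ependymal markers had one of 2.00, with 3 called higher. An unadjusted p below 0.05 in edgeR's interaction test was reached by 12 oligodendrocyte, 2 CA1 and 5 ependymal markers, against 13% of all tested genes. The part of these lists in the Car2 and Car11 values was not tested. When single mice were dropped, the adjusted p ran from 0.00167 to 0.182 for Car2 and from 0.0483 to 0.205 for Car11.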

How the results depend on the processing

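Fold changes were recomputed under the alternatives for Car14 and for the members at an unadjusted p below 0.05 in a comparison, and none of these turned its direction. These genes were picked by their values in the same mice, so a kept direction is no separate support, and for Car14 it is description only. DESeq2 called 1 member (Car2) for tau on the control diet, 1 (Car2) for tau on the acetate diet and 2 (Car2 and Car10) for acetate in tau mice, where edgeR called 0. It called 86, 112 and 175 genes in all there, against 2, 20 and 9, and 434 against 230 for the interaction. edgeR on the 6 compared mice alone called 1 member (Car2) and 35 genes for tau on the control diet. For the interaction, no filter left 1 member (Car11) and a threshold of 0.05 left 0 and 43 genes. Leaving out each mouse in turn gave 0 to 1 members for tau on the acetate diet and for acetate in tau mice, the 1 coming from Car2 without tau acetate mouse 3, 1 to 3 for acetate in PBS mice and 0 to 2 for the interaction, and 0 throughout for tau on the control diet. The interaction call of both genes was lost without PBS control mouse 2, PBS acetate mouse 2, tau control mouse 1 or 2, or tau acetate mouse 1. The call of 1 was lost without PBS control mouse 1 or PBS acetate mouse 3 (Car2) or without PBS control mouse 3, PBS acetate mouse 1 or tau acetate mouse 2 (Car11). Without PBS acetate mouse 2, acetate in PBS mice called 15 genes in all, against 1303. With the replicate number as a block, member counts were 0, 0, 3, 0 and 2 as without the replicate block, and the block took the genes called for tau on the control diet from 2 to 9 and for the interaction from 230 to 349. Deviations of same-numbered mice had correlations of -0.105 to 0.144, so the numbers were not taken as pairs. Counts of 6 to 23 for Car13 in a mouse limit what could be seen for it.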
